A study of Mus musculus with 9 samples.

Results

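Hindgut RNA of mouse embryos that lacked endothelin receptor B everywhere was set against hindgut RNA of embryos that lacked it in the neural crest, to read what loss of the receptor outside the crest adds. The comparison used 6 of the 9 Affymetrix MOE430 version 2 arrays of the series, chosen by their titles: 3 arrays titled Ednrb (29, 37 and 41) and 3 titled Ednrb-FLEX (2, 5 and 6). The first group, called Ednrb null here, has the genotype Ednrb -/- and is homozygous for a lacZ allele of the gene. The second, called Ednrb NCC null here, has the genotype Ednrb-FLEX(NCC-/-). NCC is read here as neural crest cells. The other 3 arrays, wild type 1B, 1C and 1D, entered no test and are given only as reference levels. The terminal colon was dissected at embryonic day 14 by the sample labels and 14.5 by the series text, and 150 ng of total RNA was labelled per sample. The sources used here do not give the promoter that drives recombination in the crest, what FLEX stands for, the mouse strains, the litters or the number of embryos per sample. The lacZ allele and the Ednrb-FLEX allele each occur in 1 group only, so the allele, any strain difference that came with it and the extent of receptor loss cannot be told apart. Nothing in the labels says whether the arrays of a group came from separate animals, so p-values measure the spread between these samples, which may be technical.

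Endothelin receptor B is a G protein-coupled receptor for the endothelin peptides. Enteric neural crest cells, which form the neurons and glia of the gut wall, carry it on their surface, and they respond to endothelin 3 made by the gut mesenchyme while they colonise the distal bowel. Outside the crest the receptor is known from endothelium, mesenchyme and smooth muscle. The epithelium that lines the colon arises from endoderm: the transcription factor Atoh1 commits cells to the secretory lineage, Spdef drives their maturation into goblet cells, and goblet cells secrete mucin, trefoil factor and other proteins of the mucus layer.

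Levels are log2 of the deposited intensities, and a difference is the Ednrb null mean minus the Ednrb NCC null mean, so a negative value is lower in Ednrb null. Array values are listed in the order 29, 37, 41 and 2, 5, 6. Genes with an adjusted p under 0.05 in limma are called, lower or higher. Of 18193 genes, 1295 were called (7.12%), 898 of them lower (4.94%) and 397 higher (2.18%) in Ednrb null. The median difference over all genes was 0.01. At least 2-fold, 159 genes were lower (0.874%) and 23 were higher (0.126%). The 3 arrays of a group lay wholly above or below those of the other for 4394 genes (24.2%), far more than were called. When all 45037 probe sets were tested in place of 1 per gene, 1898 were called (4.21%). The count was not even over arrays: it was 474 without Ednrb NCC null 5, 572 without Ednrb NCC null 6, 583 without Ednrb null 29 and 663 without Ednrb null 41, against 1025 without Ednrb null 37 and 1174 without Ednrb NCC null 2.

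Measures of the arrays themselves also differed. Median intensity was 112 to 115 on the 6 arrays. The log2 ratio of the 3' to the 5' control probes of Actb, a reading of RNA integrity and labelling, was 0.90, 0.80 and 0.90 in Ednrb null and 1.40, 1.03 and 1.21 in Ednrb NCC null. The difference was -0.345, and the exact two-sided permutation test gave p = 0.1, the smallest that 3 against 3 arrays allow. The mean level of 3 Y-linked genes was 8.03, 9.38 and 7.82 in Ednrb null and 3.74, 8.80 and 5.76 in Ednrb NCC null, with exact permutation p = 0.3, and Xist was between 11.60 and 13.99 on all 6 arrays. Adding the Actb ratio to the model left 289 called genes, and adding the Y-linked mean left 819. The Actb ratio did not overlap between the groups, so that fit parts the ratio from the group only weakly and has less power. A call lost in it, here or below, is therefore not a reading of RNA quality. Ednrb NCC null 2 had both the highest Actb ratio and the lowest Y-linked level. Within each group the arrays ranked by Actb ratio had the reverse order of Y-linked level. The Actb and Y-linked fits are therefore not separate readings. The part of RNA quality and of sex in the results was not tested beyond these fits. Markers of the distal gut wall were present on all 6 arrays: Hoxd13 lay between 11.99 and 12.46, Acta2 between 14.14 and 14.57 and Epcam between 12.40 and 13.05.

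The promoters shown here belong to genes of the colon lining that were lower in Ednrb null, and they were picked because each holds a short motif of a factor known from this epithelium. The sequences are from RefSeq, build GRCm38.p6, and run 5′ to 3′ over 300 bases, the last 50 of which follow the gene's start. Capitals mark the letters CAGCTG, a form of E-box that basic helix-loop-helix factors such as Atoh1 can bind, and TGTTTAC, a core of FOXA sites. They also mark TTTATGG, a core of CDX sites, and TATAAA, the letters of a TATA box. Both strands were searched, and no marked motif overlaps another here.
Agr2 promoter, chr12:35992675-35992974, plus strand: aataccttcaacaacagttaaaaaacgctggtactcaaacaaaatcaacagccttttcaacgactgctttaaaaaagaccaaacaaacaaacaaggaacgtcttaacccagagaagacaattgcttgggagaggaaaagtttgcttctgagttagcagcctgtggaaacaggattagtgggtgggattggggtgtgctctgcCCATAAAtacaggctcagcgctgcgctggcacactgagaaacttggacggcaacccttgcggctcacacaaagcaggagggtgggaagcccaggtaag
Muc2 promoter, chr7:141690090-141690389, plus strand: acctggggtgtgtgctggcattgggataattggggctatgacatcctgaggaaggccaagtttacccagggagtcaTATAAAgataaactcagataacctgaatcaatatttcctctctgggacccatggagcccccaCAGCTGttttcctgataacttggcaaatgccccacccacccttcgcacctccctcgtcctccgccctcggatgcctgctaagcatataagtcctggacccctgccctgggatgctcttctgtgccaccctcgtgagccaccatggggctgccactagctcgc
Guca2a promoter, chr4:119637482-119637781, plus strand: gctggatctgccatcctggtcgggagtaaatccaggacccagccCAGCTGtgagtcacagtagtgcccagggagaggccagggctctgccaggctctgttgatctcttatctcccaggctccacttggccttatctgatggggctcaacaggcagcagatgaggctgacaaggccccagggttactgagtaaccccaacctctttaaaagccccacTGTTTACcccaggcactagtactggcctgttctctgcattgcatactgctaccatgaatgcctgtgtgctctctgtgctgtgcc
Sult1d1 promoter, chr5:87568957-87569256, minus strand: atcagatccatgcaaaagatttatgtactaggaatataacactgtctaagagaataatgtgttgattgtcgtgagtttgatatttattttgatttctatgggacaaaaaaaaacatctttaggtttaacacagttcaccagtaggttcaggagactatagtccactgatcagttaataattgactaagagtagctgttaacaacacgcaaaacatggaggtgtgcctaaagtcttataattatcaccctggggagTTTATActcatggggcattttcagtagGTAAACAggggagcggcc
Agr2 carries the CDX letters on the opposite strand, and Guca2a carries an E-box and the FOXA letters. Sult1d1 carries FOXA and TATA letters on the opposite strand, and Muc2 carries TATA letters and an E-box. The TATA letters of Muc2 lie far upstream of the gene's start and those of Sult1d1 follow it, so neither is taken as a TATA box. Of the 61 genes of 4 epithelial lists that were lower in Ednrb null, 40 were matched in the promoter table. TGTTTAC occurred in 5 of these 40 promoters (12.5%), against 2.82% of the 14452 promoters matched to all tested genes. CAGCTG occurred in 9 (22.5%) against 16.1%, TTTATGG in 2 (5%) against 2.08%, and TATAAA in 6 (15%) against 9.87%. A match describes these letters in a window of 300 bases and not a bound site, and no test was made of these shares.

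The targeted gene was the check of the groups. Ednrb measured 9.23, 9.40 and 8.77 in Ednrb null and 11.15, 11.32 and 11.04 in Ednrb NCC null, with 11.08, 10.95 and 11.05 in wild type. The Ednrb NCC null arrays were thus close to wild type and all Ednrb null arrays lay below them. The difference was -2.04 (SE 0.153, n = 3 arrays per group, limma adjusted p = 0.000254), a 4.10-fold lower level. The other probe sets of Ednrb gave -1.83 and -1.62, all 3 of them called. The part of the gene removed by either allele is not given, so it is not known whether these probe sets lie inside it. In bulk tissue, fewer cells of a type and less RNA per cell cannot be told apart.

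Of the 9 measured genes of endothelin ligands, receptors and processing enzymes, Ednrb alone was called. Ednra, the other endothelin receptor on the list, was not among the genes tested. Edn3, the ligand that crest cells meet in the gut, measured 8.42, 8.23 and 8.37 in Ednrb null and 8.33, 8.38 and 8.59 in Ednrb NCC null. The groups overlap, and its difference was -0.09 (95% confidence interval -0.32 to 0.13, limma adjusted p = 0.659). The differences of the other ligands were -0.17 for Edn1 and -0.20 for Edn2. The converting enzymes that release active endothelin gave 0.17 for Ece1 and -0.14 for Ece2, and the related peptidases gave -0.27 for Ecel1, -0.34 for Mme and 0.21 for Kel. None of these 8 passed the test.

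Most genes of the crest and the nervous system were not called between the mutants. Ret, the GDNF receptor that marks enteric crest cells, measured 5.81, 7.14 and 6.13 in Ednrb null and 6.0, 6.79 and 6.04 in Ednrb NCC null, against 8.91 to 9.94 in wild type. The mutants overlap, and the difference of 0.08 has a 95% confidence interval of -0.63 to 0.80 (limma adjusted p = 0.920). Elavl4, an RNA-binding protein of neurons, differed by 0.03 (-0.18 to 0.25). Of 35 neuronal genes none was called in limma, and their median was 0.06.

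**Figure D1:**
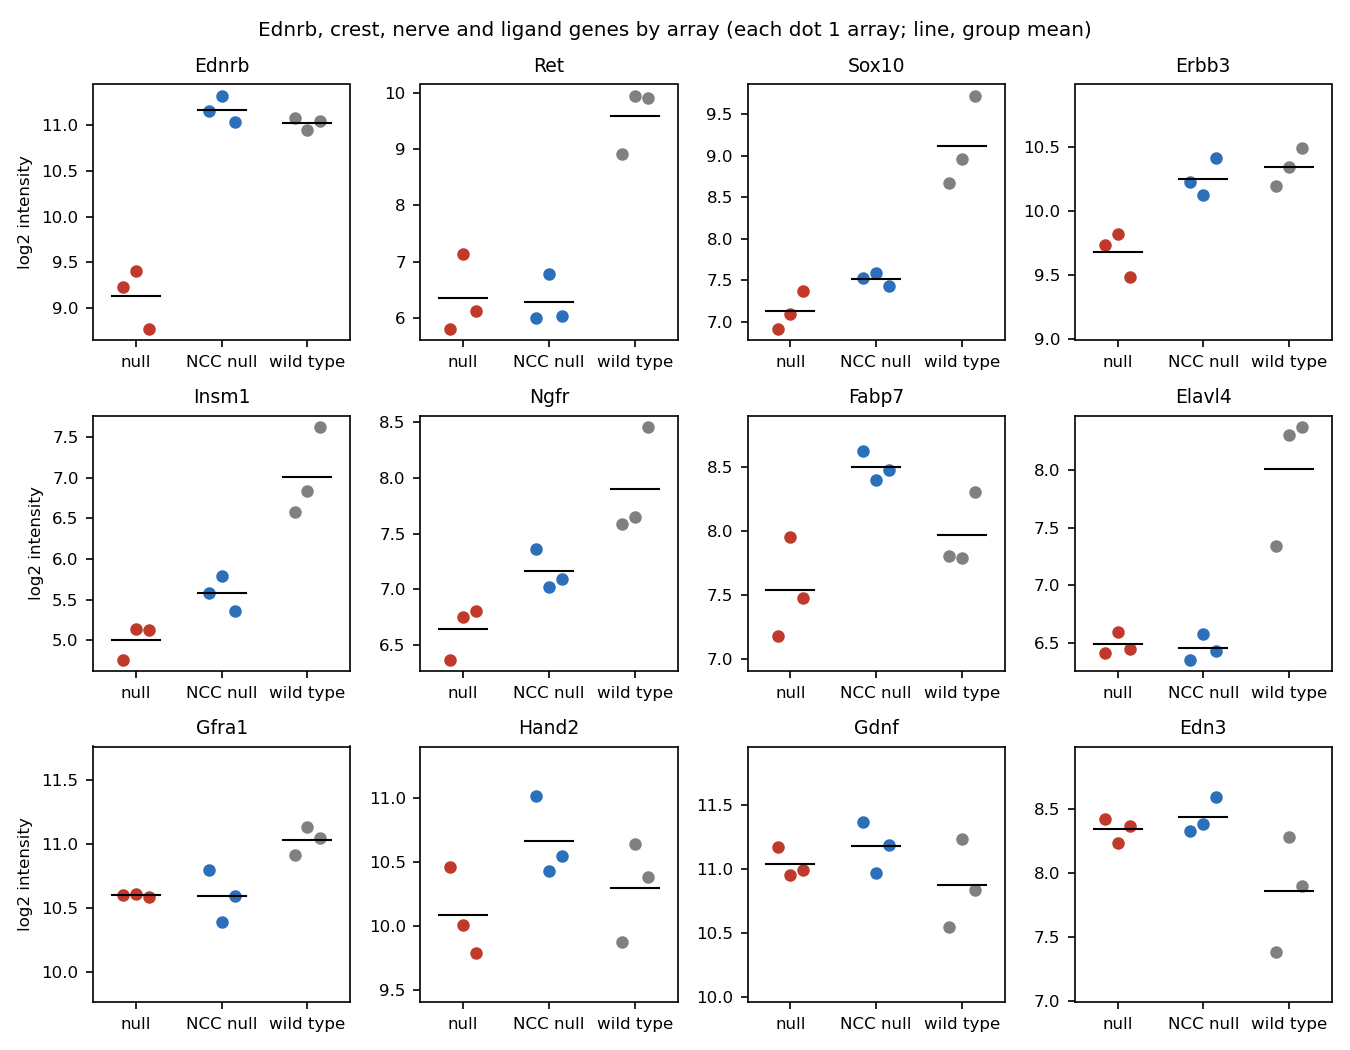
log2 intensity of 12 genes on each array, by group (x axis); each dot is 1 array and each line a group mean. Ednrb is low in Ednrb null only, Ret and Elavl4 are low in both mutants with overlapping dots, and Erbb3 and Fabp7 lie lower in Ednrb null.

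A small step was nevertheless called for genes of crest progenitors and glia. Erbb3, the neuregulin receptor of glial precursors, measured 9.73, 9.82 and 9.48 in Ednrb null and 10.22, 10.12 and 10.41 in Ednrb NCC null, a difference of -0.57 (SE 0.114, limma adjusted p = 0.0178) with no overlap. Fabp7, a fatty acid-binding protein of glial precursors, measured 7.18, 7.96 and 7.48 against 8.63, 8.40 and 8.48, a difference of -0.97 (SE 0.171, adjusted p = 0.0107). Wild type Fabp7, at 7.81, 7.79 and 8.31, overlapped Ednrb null and lay below every Ednrb NCC null array. Insm1, a transcription factor of neuroendocrine and neuronal precursors, differed by -0.57 and Ngfr, the low-affinity neurotrophin receptor, by -0.52. Their dimmer probe sets gave -0.21 for Insm1 and 0.12 and 0.02 for Ngfr, and that of Erbb3 gave -0.08. None of these was called, and Erbb3 and Ngfr lost their call with the mean of a gene's probe sets. In all, 3 of 16 crest genes were lower (18.8%), Erbb3, Insm1 and Ngfr, where 4.94% of all genes were. Of 16 glial genes 5 were lower (31.2%): the targeted gene Ednrb, Fabp7, Erbb3, Ngfr and Mal. The lists share members. Sox10, the factor that defines crest cells and glia, differed by -0.39 (-0.65 to -0.12, adjusted p = 0.0869) and was not called. Few of these calls outlasted the loss of an array. None of the 3 crest genes was still called when Ednrb null 29, Ednrb null 41 or Ednrb NCC null 5 was dropped, and 1 of them was when any other array was. Of the 5 glial genes, Ednrb alone was still called without Ednrb NCC null 5, and 2 to 4 were when another array was dropped. Erbb3 is also made by epithelial cells, whose genes were lower too, and their part in its difference was not tested. Of 11 genes of the RET and GDNF family, none was called in limma: Gdnf, the ligand, differed by -0.14 and its coreceptor Gfra1 by 0.01. Gfra3, the coreceptor for artemin, was 7.89, 8.57 and 8.79 against 7.76, 7.53 and 7.81, a difference of 0.72 (adjusted p = 0.0622).

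The goblet, epithelial adhesion and endoderm factor lists had the lowest medians of the 44 lists. Over 4 lists (goblet cells, endoderm transcription factors, epithelial adhesion and brush border, colonocyte enzymes and transporters) 117 genes were measured, of which 61 were lower (52.1%, where 4.94% of all genes were) and 1, B4galnt2, was higher. The summed intensity of the 117 genes was 87580 to 115600 on the Ednrb null arrays, 135700 to 160700 on the Ednrb NCC null arrays and 104500 to 118000 on the wild type arrays. The wild type sums thus overlapped those of Ednrb null and lay below all Ednrb NCC null arrays. That held for the adhesion and colonocyte lists alone but not for the others. Wild type goblet sums, 5318 to 11940, lay above Ednrb null (3102 to 4998) and overlapped Ednrb NCC null (11210 to 20830). Wild type endoderm factor sums, 17100 to 18040, lay between Ednrb null (12320 to 15320) and Ednrb NCC null (19070 to 22600). For single genes, the wild type mean lay between the mutant means for 53 of the 61, nearer to Ednrb null for 38 and to Ednrb NCC null for 23. Without wild type 1C these counts were 50, 33 and 28. For all 898 lower genes the same counts were 634, 508 and 390, and without wild type 1C they were 607, 439 and 459. The lists were chosen with results of these arrays known, and the share carries no test.

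**Figure D2:**
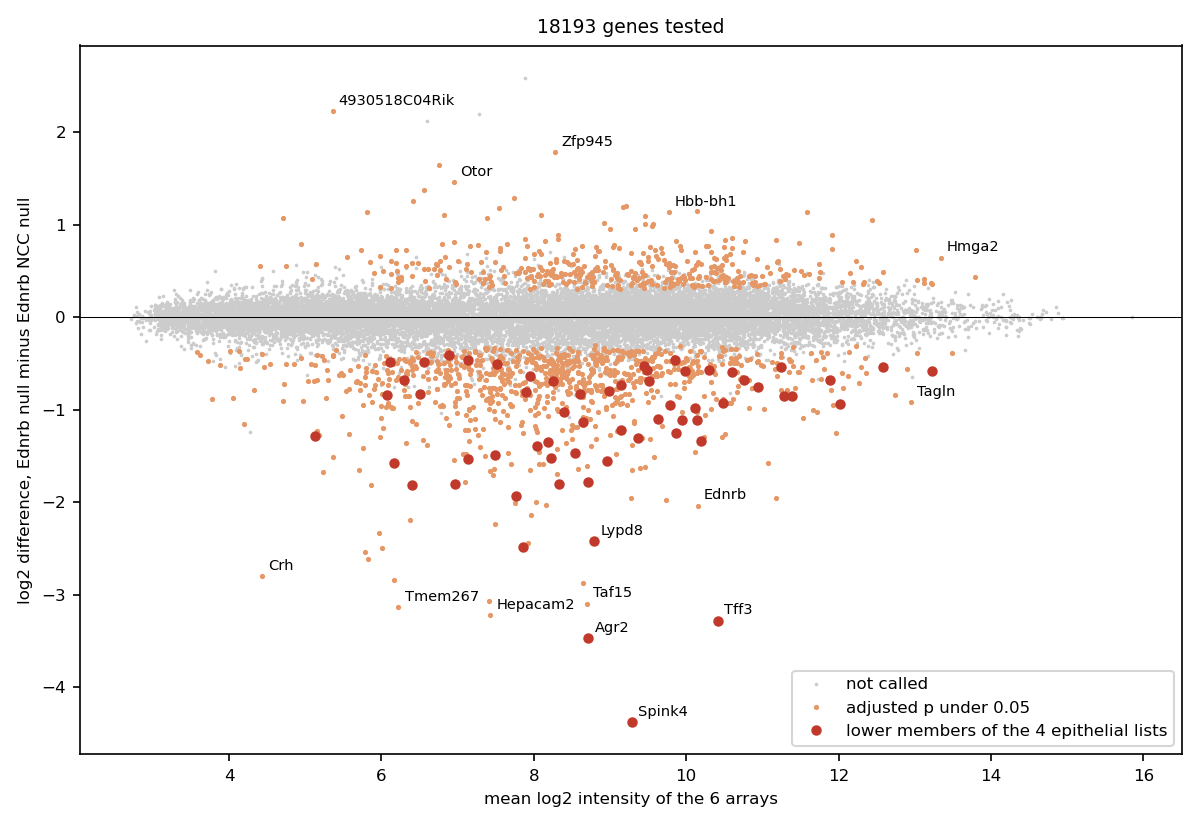
Difference (y axis, log2) against mean level (x axis, log2 intensity of the 6 arrays) for each of 18193 genes. Genes with an adjusted p under 0.05 are orange, and the 61 lower members of the 4 epithelial lists are red; Spink4, Agr2 and Tff3 lie lowest among the red ones, and the falls reach farther from 0 than the rises.

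The goblet cell genes stood farthest apart. Spink4, a secreted trypsin-inhibitor-like protein of goblet cells, measured 6.98, 7.30 and 7.01 in Ednrb null and 10.71, 12.17 and 11.53 in Ednrb NCC null. Tff3, the trefoil peptide of intestinal mucus, measured 8.35, 9.63 and 8.34 against 11.54, 12.65 and 11.97. Agr2, an endoplasmic reticulum disulphide isomerase needed for mucin folding, measured 6.74, 7.70 and 6.51 against 9.93, 10.99 and 10.42. Each gene separated the groups by more than the spread within either. The differences were -4.38 for Spink4 (SE 0.294, limma adjusted p = 0.000157), -3.28 for Tff3 (SE 0.357, adjusted p = 0.00143) and -3.47 for Agr2 (SE 0.320, adjusted p = 0.000665). A dimmer probe set of Agr2 gave -1.15.

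The wild type arrays did not agree among themselves for these genes. Spink4 measured 9.90, 7.23 and 10.21 in wild type 1B, 1C and 1D, so that wild type 1C sat at the Ednrb null level and the other two below every Ednrb NCC null array. Tff3 and Agr2 were also lowest in wild type 1C, with 9.45 and 7.40 in wild type 1C against 11.37 and 9.16 in 1B. Wild type therefore gives no single reference level here. Wild type 1C also differed in sex-linked genes. Its Xist level was 6.70, against 14.07 in 1B and 13.67 in 1D, and its Y-linked mean was 9.38, against 7.65 and 7.82. The part of sex in this spread was not tested. Of the 13 goblet genes called, the wild type mean was nearer to Ednrb NCC null for 9, and for 11 when wild type 1C was left out.

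Regulators of the goblet lineage were lower as well. Atoh1 measured 7.31, 7.53 and 7.55 against 8.52, 9.18 and 9.25, a difference of -1.52 (SE 0.175, limma adjusted p = 0.00160). Spdef measured 6.65, 6.88 and 6.70 against 7.84, 8.51 and 8.37, a difference of -1.49 (SE 0.159, adjusted p = 0.00140). Creb3l1, a membrane-bound factor of the secretory pathway, differed by -1.11, and Ern2, the stress sensor kinase of mucous cells, by -1.81. Galnt12, which starts O-glycans on mucins, differed by -1.56 and Bcas1, a goblet marker, by -1.39. These 6 genes had no overlap between groups and kept their call in every alternative run on them. No other probe set of Bcas1 was called the same way. Muc2, the gel-forming mucin of the colon, had a smaller step: 6.13, 6.37 and 6.44 against 6.64, 6.87 and 6.88, a difference of -0.48 (adjusted p = 0.0300) that was not called without Ednrb null 29, Ednrb null 37, Ednrb NCC null 5 or Ednrb NCC null 6. Clca1, Capn8 and Capn9 completed the 13 called of 19, at -1.33, -0.48 and -0.84. The other probe set of Clca1 was not called the same way. Leaving out Ednrb null 29, Ednrb NCC null 5 or Ednrb NCC null 6 brought the 13 to 9. The remaining 6 were not called, among them Fcgbp at -0.28 and Reg4, B3gnt6 and Retnlb, whose levels stayed under 5.5 on these arrays.

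**Figure D3:**
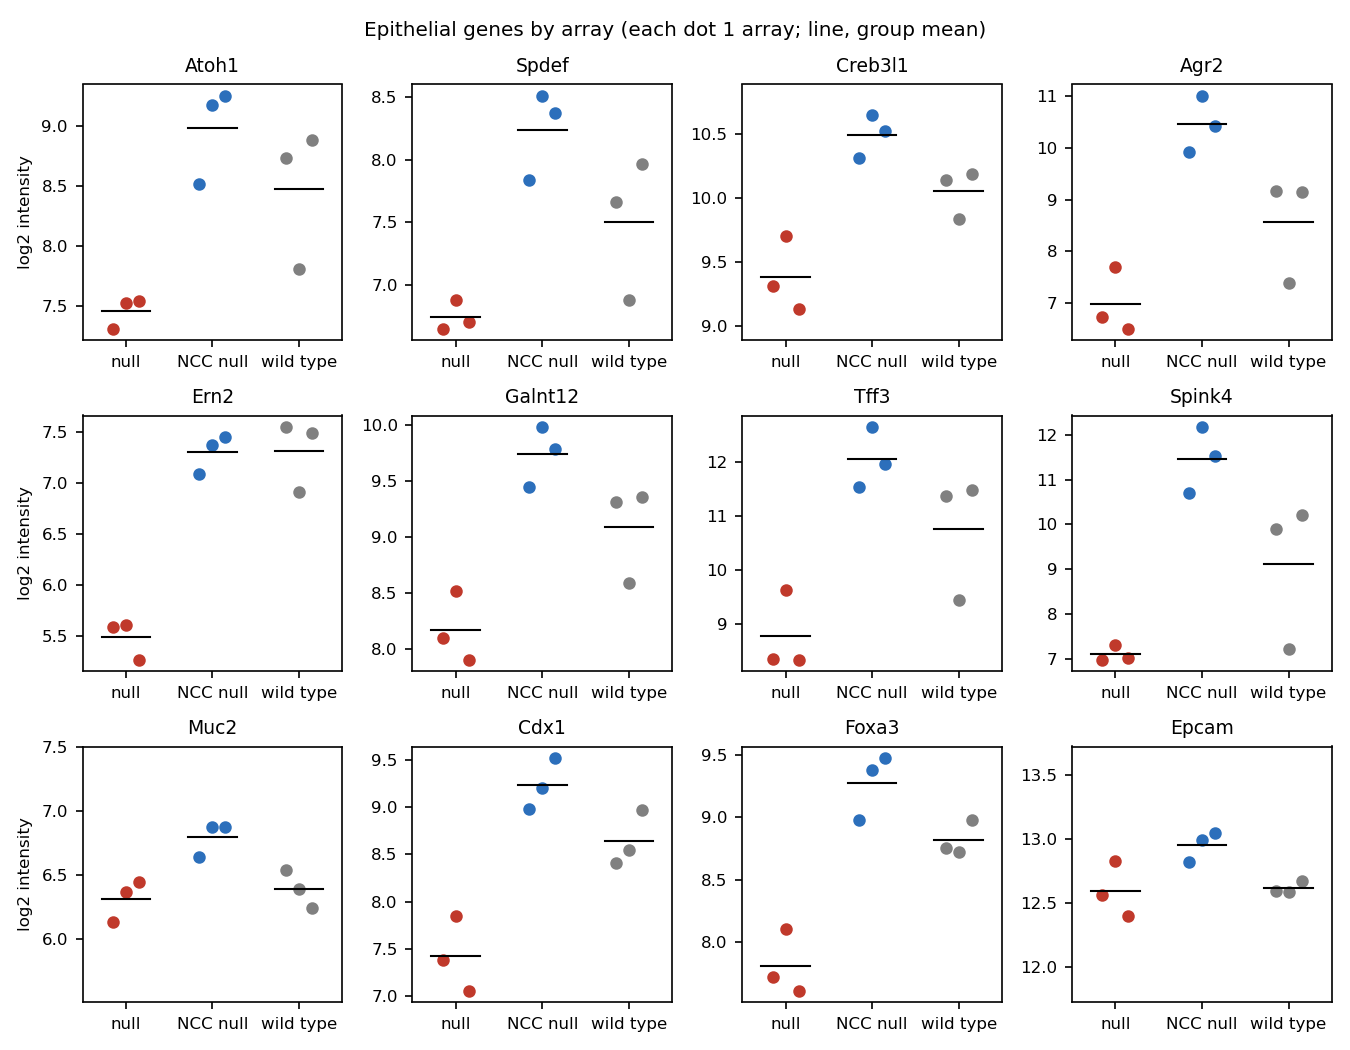
log2 intensity of 12 epithelial genes on each array, by group (x axis); each dot is 1 array and each line a group mean. Spink4, Tff3, Agr2 and their regulators separate the mutants, 1 wild type array (grey) lies low for goblet genes, and Epcam overlaps between the mutants.

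Endoderm transcription factors showed 11 of 24 lower, Atoh1 and Spdef among them, and 0 higher, with a median of -0.41. Cdx1, a homeobox factor of intestinal identity, measured 7.38, 7.84 and 7.05 against 8.98, 9.20 and 9.52, a difference of -1.81 (SE 0.196, limma adjusted p = 0.00141). Foxa3, a forkhead factor of endoderm, measured 7.72, 8.11 and 7.61 against 8.98, 9.38 and 9.48, a difference of -1.47 (SE 0.159, adjusted p = 0.00141). Both left no overlap. Neurog3, which starts the enteroendocrine lineage, differed by -1.58, though its other probe set was not called the same way. Klf4, a factor of goblet and surface cells, differed by -0.95, Ehf by -0.93, Isx by -0.83, Foxa1 by -0.68, Hnf4a by -0.60 and Ovol2 by -0.41. Other defining factors were not called: Sox9 differed by 0.00 (-0.22 to 0.22), Foxa2 by -0.27 and Cdx2 by -0.41 (adjusted p = 0.134). Without Ednrb NCC null 5 the list kept 6 of its 11, and without Ednrb null 29 or Ednrb NCC null 6 it kept 7.

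Adhesion, keratin and brush border genes were lower in smaller steps but in larger number, 25 of 38 with a median of -0.56. Muc13, a membrane mucin, measured 7.99, 7.57 and 7.91 against 9.04, 10.07 and 9.71, a difference of -1.79 (SE 0.226, limma adjusted p = 0.00241). Its other probe set was not called the same way. Cdh17, the liver-intestine cadherin, differed by -1.31, Vil1, the actin bundler of microvilli, by -1.21, and the tetraspanin Tspan1 by -1.11. Krt8, Krt18 and Krt19, the keratins of simple epithelium, differed by -0.59, -0.68 and -0.54, and the tight junction gene Cldn7 by -0.85. Of the 38 members 35 lay below 0, and Epcam and Cdh1 were among those below 0 that were not called. Epcam measured 12.56, 12.83 and 12.40 against 12.82, 12.99 and 13.05, with overlap, a difference of -0.36 (-0.63 to -0.09, adjusted p = 0.123), and Cdh1 differed by -0.42 (-0.76 to -0.07, adjusted p = 0.155). This list rested heavily on single arrays: 3 of the 25 were called without Ednrb NCC null 5, 9 without Ednrb null 29, 10 without Ednrb NCC null 6, and 11 when Ednrb null 41 was dropped, while its median stayed between -0.50 and -0.68. Adding the Actb ratio left 4 called, with a median of -0.78, and adding the Y-linked mean left 11.

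Colonocyte enzymes and transporters split into genes that were lower and genes that were not. Of 38 measured, 14 were lower and B4galnt2 was higher by 0.38, a call lost when any of the 6 arrays was dropped, and the median was -0.14. Fut2, the fucosyltransferase of mucosal glycans, measured 6.39, 6.96 and 6.51 against 8.73, 9.39 and 9.20, a difference of -2.48 (SE 0.186, limma adjusted p = 0.000254), though its other probe set gave -0.22. Lypd8, a surface protein that keeps flagellated bacteria off the colon, measured 7.45, 7.94 and 7.36 against 9.48, 10.27 and 10.27, a difference of -2.42 (adjusted p = 0.000641), with wild type at 6.94, 7.15 and 8.01. For Lypd8 wild type overlaps Ednrb null and lies below every Ednrb NCC null array. Guca2a, the precursor of guanylin, measured 6.57, 6.99 and 6.85 against 8.20, 9.14 and 8.86, a difference of -1.93 (adjusted p = 0.00148). The sulphotransferase Sult1d1 differed by -1.80, the carbonic anhydrase-related gene Car8 by -1.53 and the short-chain fatty acid transporter Slc5a8 by -1.35. The chloride channel Cftr differed by -1.14 and carbonic anhydrase 2 (Car2) by -0.94. No other probe set of Car8 or Cftr was called the same way. Mature colon genes such as Slc26a3 and Aqp8 were not called and measured between 4.54 and 5.24. Of the 14 lower genes, the wild type mean was nearer to Ednrb null for 11, and for 8 without wild type 1C. The count was 9 without Ednrb NCC null 5 and 12 with the Actb covariate.

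Endocrine and lipid-handling genes of the endoderm held a smaller share of calls than the 4 epithelial lists. It was 10.5% for endocrine and 13.6% for lipid-handling genes, against 7.12% of all genes. Of 19 enteroendocrine genes, Chga (-0.51) and Insl5 (-0.62) were lower, and neither was called without Ednrb null 29, Ednrb null 41 or Ednrb NCC null 5. Of 22 apolipoprotein and lipid-handling genes, Alb (-1.63), Ttr (-1.28) and Apoe (-0.63) were lower, of which Ttr was lost without Ednrb NCC null 5 and Apoe without Ednrb NCC null 6. Afp, the fetal albumin-like protein, measured 10.80, 10.86 and 9.72 against 11.21, 11.21 and 11.29, a difference of -0.78 that was not called (limma adjusted p = 0.109).

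**Figure D4:**
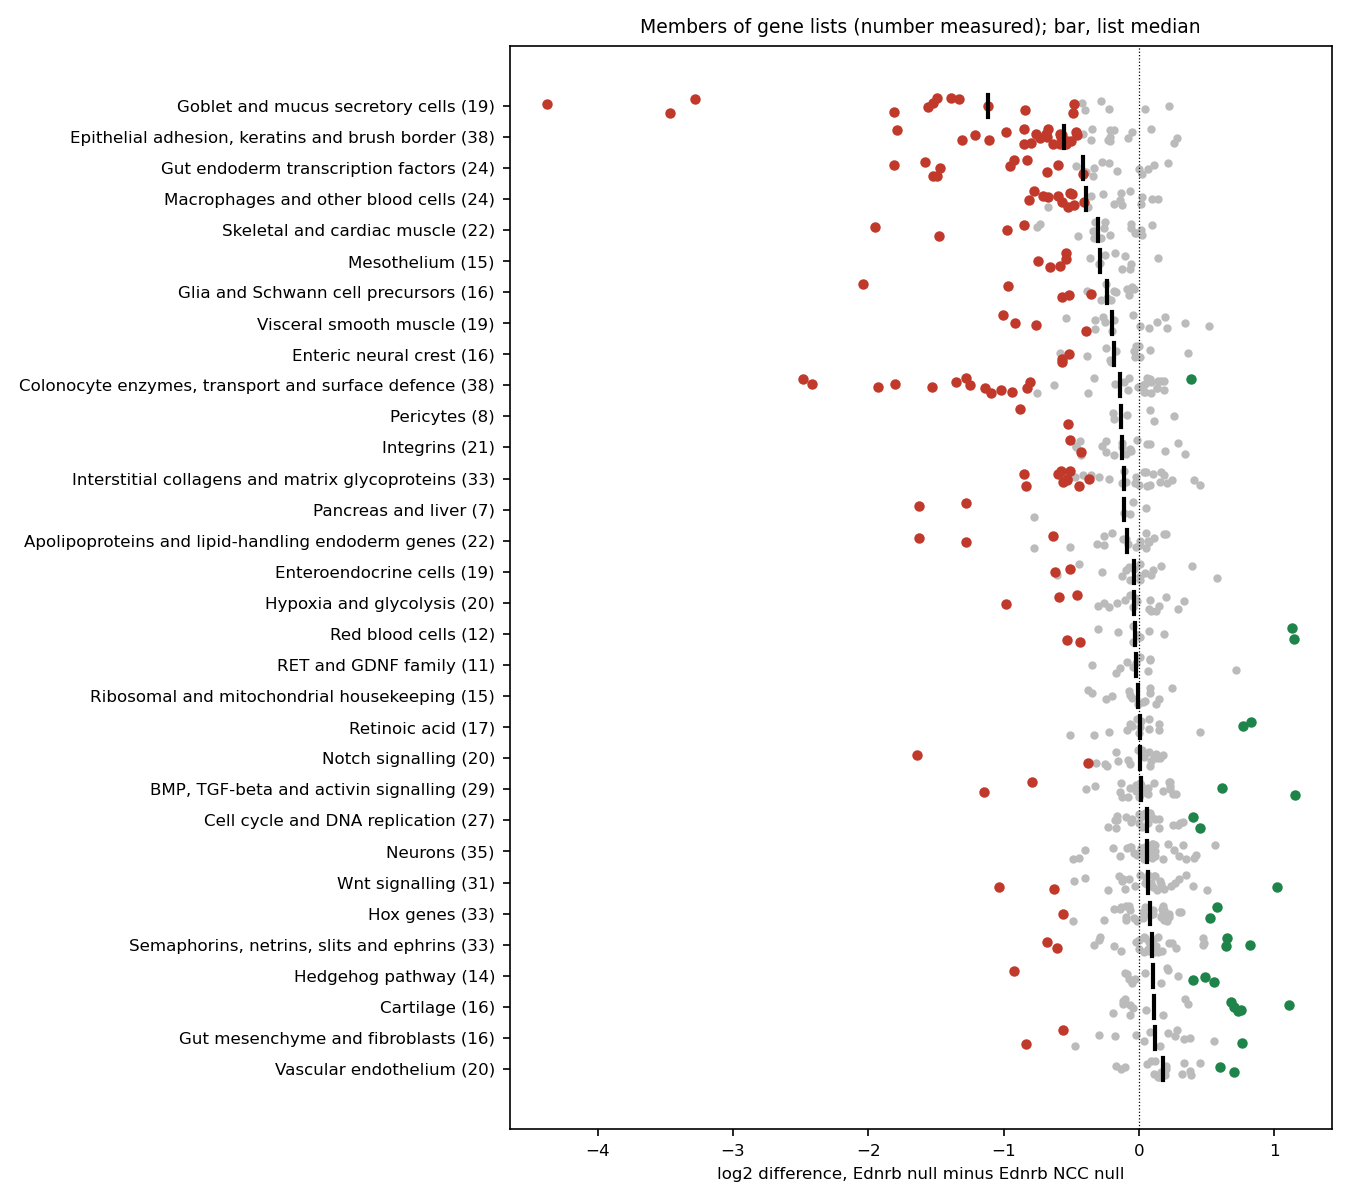
Difference (x axis, log2) of each measured member of a list (rows, with the number measured); red and green dots are called lower and higher, grey ones are not called, and the black bar is the list's median. The goblet list has the lowest median at -1.11, and vascular endothelium has the highest of those drawn at 0.18.

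Genes of the muscle, mesenchyme and vessels were called as well. Of 19 smooth muscle genes 4 were lower (21.1%, where 4.94% of all genes were), with a median of -0.20. Cnn1, the calponin of contractile smooth muscle, measured 11.18, 11.40 and 10.92 against 12.28, 12.15 and 12.09, a difference of -1.01 (SE 0.123, limma adjusted p = 0.00207). Tagln measured 12.33, 12.80 and 12.32 against 13.33, 13.50 and 13.37, a difference of -0.92 (adjusted p = 0.00426). Both left no overlap. Wild type lay between the mutants for Cnn1, at 11.53 to 11.88, and overlapped Ednrb null for Tagln, at 12.52 to 13.10. Myh11 (-0.76) and Myl9 (-0.39) were also lower, whereas Acta2 (-0.20) and Actg2 (-0.18) were not called. Without Ednrb null 29, Ednrb null 41 or any 1 Ednrb NCC null array 2 of the 4 were called, and with the Actb covariate 0. Of 8 pericyte genes, the potassium channel subunits Kcnj8 (-0.88) and Abcc9 (-0.52) were lower (25%). Abcc9 lost its call when any of the 6 arrays was dropped.

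Matrix genes of the mesenchyme gave 10 of 33 lower (30.3%, against 4.94% of all genes). Among them were the collagen VI chains Col6a1 (-0.60), Col6a2 (-0.53) and Col6a3 (-0.45), the small proteoglycan Lum (-0.84) and Tnxb (-0.85). The list median was -0.11, and none was called with the Actb covariate. Without 1 array the count fell to 2 without Ednrb null 29, Ednrb null 41 or Ednrb NCC null 5, 4 without Ednrb NCC null 2 and 5 without Ednrb NCC null 6. Foxf2, a forkhead factor of gut mesenchyme, was higher by 0.76 (9.29, 9.11 and 9.21 against 8.67, 8.27 and 8.38), while wild type lay at 8.85 to 9.55 and overlapped Ednrb null. None of 20 basement membrane genes and none of 19 metalloproteinase genes was called in limma. Of 20 endothelial genes, the fenestral protein Plvap (0.70) and the guidance receptor Robo4 (0.60) were higher (10%, where 2.18% of all genes were). Neither was called without Ednrb NCC null 5, and Robo4 also not without Ednrb null 29 or Ednrb NCC null 6. The pan-endothelial receptor Kdr was not called at 0.38 (adjusted p = 0.0746).

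Calls among signalling genes ran in both directions. The share called was 28.6% for Hedgehog, 13.8% for BMP and activin and 9.68% for Wnt genes, against 7.12% of all genes. Ihh, a Hedgehog ligand of the gut epithelium, measured 8.73, 8.73 and 8.33 in Ednrb null and 9.35, 9.37 and 9.84 in Ednrb NCC null, a difference of -0.92 (SE 0.154, limma adjusted p = 0.00829) with no overlap. Shh, the other epithelial ligand, differed by -0.05. The Hedgehog target genes Ptch1 (0.49), Gli1 (0.40) and Hhip (0.56) were higher in Ednrb null, so that 1 of 14 pathway genes was lower and 3 were higher. The 3 targets passed narrowly: none was called without Ednrb null 29, without Ednrb null 41 or without Ednrb NCC null 6. Among 29 BMP and activin genes, Bmp2 (-0.79) and Gdf10 (-1.15) were lower and Bmp4 (0.61) and Inhba (1.15) were higher. Bmp2 lost its call without Ednrb null 29 or any 1 Ednrb NCC null array. Inhba, the activin A subunit, measured 10.79, 10.62 and 10.73 against 9.80, 9.43 and 9.47, though its other probe set, which is dim, gave -0.14. Among 31 Wnt genes, the secreted inhibitor Frzb was higher at 9.55, 9.28 and 9.48 against 8.62, 8.30 and 8.31, a difference of 1.02 (SE 0.114, adjusted p = 0.00151), and 1.34 on its other probe set. Rspo2, which enhances Wnt signalling, was lower by 1.04, but its other probe set gave -0.09.

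For other groups the share called was 15.2% for guidance, 11.8% for retinoic acid, 10% for Notch, 9.09% for Hox and 5% for FGF genes. The share of all genes was 7.12%, and the Notch, Hox and FGF shares were near it. The retinoic acid receptor Rarb measured 11.12, 11.25 and 11.19 against 10.51, 10.26 and 10.32, a difference of 0.82 (SE 0.0937, limma adjusted p = 0.00159), and the binding protein Crabp2 was higher by 0.77. These were the only 2 called of 17 retinoic acid genes, and Crabp2 was lost without Ednrb NCC null 5. Dll3, a Notch ligand found in differentiating secretory and neural cells, differed by -1.64, with Notch4 at -0.38 the only other call among 20 Notch genes and one that remained without Ednrb null 37 only. Of 20 genes of FGF signalling, the phosphatase Dusp4 was lower by 0.58. Of 33 Hox genes, Hoxd11 (0.53) and Hoxd12 (0.57) were higher and Hoxb9 (-0.56) was lower, while Hoxd13 differed by 0.22 and was not called. Hoxd12 was lost without Ednrb null 29, Ednrb null 41, Ednrb NCC null 2 or Ednrb NCC null 5. Among 33 guidance genes, Unc5c (0.65), Robo2 (0.82) and Epha4 (0.65) were higher and Ntn1 (-0.68) and Sema4a (-0.61) were lower. The 3 higher ones all lost their call without Ednrb null 29, Ednrb null 41, Ednrb NCC null 5 or Ednrb NCC null 6, and Ntn1 remained called without Ednrb NCC null 5 only, whereas Sema4a was called without any 1 array.

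Genes of other cell types were called too, and their part in the results above was not tested. Of 22 skeletal and cardiac muscle genes 4 were lower (18.2%, where 4.94% of all genes were). They were Actc1 (8.17, 8.52 and 8.23 against 10.30, 10.73 and 9.73, a difference of -1.95), Tnnt2 (-1.48), Tnnt1 (-0.98) and Myl4 (-0.85). The list summed to 2396 to 2841 in Ednrb null and 4085 to 5082 in Ednrb NCC null. The wild type sum ran from 2349 to 5246, and the defining factors Myod1 and Myog lay between 5.25 and 7.15 on the mutant arrays. Of 24 macrophage and blood cell genes 11 were lower (45.8%), with sums of 14780 to 17530 against 16790 to 19470. Pf4, a chemokine of platelets and macrophages, differed by -0.81 and kept its call in every alternative run on it, whereas Adgre1 and Ptprc were not called. That list kept 1 call without Ednrb null 41, 2 without Ednrb null 29, Ednrb NCC null 5 or Ednrb NCC null 6, and 4 without Ednrb NCC null 2. Of 15 mesothelial genes 5 were lower (33.3%), 3 of which are keratins of simple epithelium. Of the 5, 1 was still called without Ednrb null 29, Ednrb NCC null 5 or Ednrb NCC null 6, and 2 without Ednrb null 41 or Ednrb NCC null 2. Of 16 cartilage genes 5 were higher (31.2%, where 2.18% of all genes were), with sums of 3843 to 4569 against 2767 to 3129. They were Col2a1 by 1.11 (8.63, 8.37 and 8.95 against 7.65, 7.65 and 7.33), Col11a1, Col9a1, Col9a3 and Hapln1. Without Ednrb NCC null 5, 3 of the 5 were called. The cartilage-defining genes Acan and Matn1 were not called and measured under 5.7 on all 6 arrays.

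Of 10 genes listed for fetal timing, 1 was called (10%, against 7.12% of all genes). Hmga2, a chromatin protein that declines as tissues mature, measured 13.81, 13.51 and 13.66 in Ednrb null and 13.12, 12.89 and 13.04 in Ednrb NCC null, a difference of 0.64 (SE 0.104, limma adjusted p = 0.00711), with 0.59 to 1.11 on its other probe sets. Of 12 red blood cell genes 2 were higher and 2 lower (33.3% called, against 7.12% of all genes), with a median of -0.03. The embryonic globins Hbb-bh1, at 10.23, 10.49 and 10.30 against 9.20, 9.20 and 9.21, and Hba-x, at 11.98, 12.22 and 12.24 against 11.28, 10.78 and 10.96, differed by 1.13 and 1.14. In wild type Hmga2 was 13.24, 13.67 and 13.16 and Hbb-bh1 7.89, 8.55 and 8.11, so Hbb-bh1 was lower than in either mutant. The other embryonic globin, Hbb-y, differed by 0.19 and was not called. The lower ones were Klf1 (-0.53), a factor of red cell genes, and the transferrin receptor Tfrc (-0.44). Klf1 lost its call when any of the 6 arrays was dropped, and Tfrc remained called without Ednrb null 37 only. Igf2, Dlk1 and the other genes of the fetal timing list were not called. Of 27 cell cycle genes Plk1 (0.45) and Aurkb (0.40) were higher, a share of 7.41% that is near the 7.12% of all genes, and neither was called without Ednrb null 29, Ednrb null 41 or Ednrb NCC null 5. No label gives the age of single embryos, and the part of developmental stage was not tested.

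Among the genes with the largest differences, several have no tie to the epithelium. Taf15, an RNA-binding protein, measured 7.14, 7.44 and 6.87 in Ednrb null and 10.37, 10.04 and 10.32 in Ednrb NCC null, a difference of -3.10 (SE 0.147, limma adjusted p = 1.72e-05), with wild type at 9.47 to 9.97. Its other probe set gave 0.42. The zinc finger gene Zfp874a measured 4.53, 4.88 and 4.81 against 7.55, 7.69 and 7.52, with wild type at 7.16 to 7.22, a difference of -2.84 (SE 0.108, adjusted p = 6.28e-06). Tmem267 (-3.13) and Zfp429 (-2.50) also had wild type near or above Ednrb NCC null, at 8.24 to 8.38 and 6.89 to 7.25. Crh, which encodes corticotropin-releasing hormone, was 2.79, 3.06 and 3.23 against 6.52, 4.90 and 6.06, so its Ednrb null values lay near the lowest on these arrays.

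Many of the large differences were not called on another probe set of the same gene. Of the 182 genes that were called and at least 2-fold apart, 84 have more than 1 probe set, and for 56 of these 84 no other probe set was called the same way. Zfp945 measured 9.37, 9.06 and 9.09 against 7.71, 7.38 and 7.07 on its brightest probe set, a difference of 1.79, while another gave -2.50 and the third 0.18. The largest rise, of 4930518C04Rik by 2.23, had -0.02 on its other probe set, Scn3a rose by 1.64 against 0.07, and Xaf1 rose by 1.37 against -0.67. The other probe sets of 4930518C04Rik and Scn3a were dim, with group means of 4.31 to 4.53, so a missing call there need not be a disagreement. Xaf1 lost its call without any 1 Ednrb null array or Ednrb NCC null 6. Of 9010 genes with more than 1 probe set, 8 had probe sets called in opposite directions: Bcl2, Cdk12, Cib1, Eloa, Riok3, Rnps1, Zfp945 and Zmynd8. Ugt2b34, a glucuronosyltransferase (-2.88 and -2.96), Hbb-bh1 (1.13, 0.95 and 0.92) and Ednrb itself were called alike on every probe set. Probe sequences are not used here, so an altered transcript, another isoform and a mismatch of the probes with a strain's sequence cannot be told apart.

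Genes beside Ednrb were examined because an allele can carry flanking DNA of its strain of origin. On chromosome 14, which holds Ednrb, 40 of 641 genes were called (6.24%), within the range of 4.94% to 8.76% over the chromosomes. Within 50 gene positions of Ednrb, 6 of 100 genes were called (6%), and within 10 positions 1 of 20 (5%). The 6 were Ccdc122 (-1.78), Epsti1 (-0.96), Pcdh17 (-0.68), Slitrk1 (-0.46), Slc15a1 (-0.38) and Abcc4 (0.75). Pcdh17, Slitrk1 and Slc15a1 each lost their call in 5 of the 6 fits that drop an array, Pcdh17 in all but that without Ednrb null 29, Slitrk1 in all but that without Ednrb NCC null 6 and Slc15a1 in all but that without Ednrb NCC null 2. Ccdc122 measured 6.49, 5.89 and 6.23 against 8.01, 7.95 and 7.98, with wild type at 7.49 to 7.59, and is the second largest difference in that stretch after Ednrb. The share of genes called near Ednrb was thus close to that of all genes, and strain differences elsewhere in the genome were not tested.

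**Figure D5:**
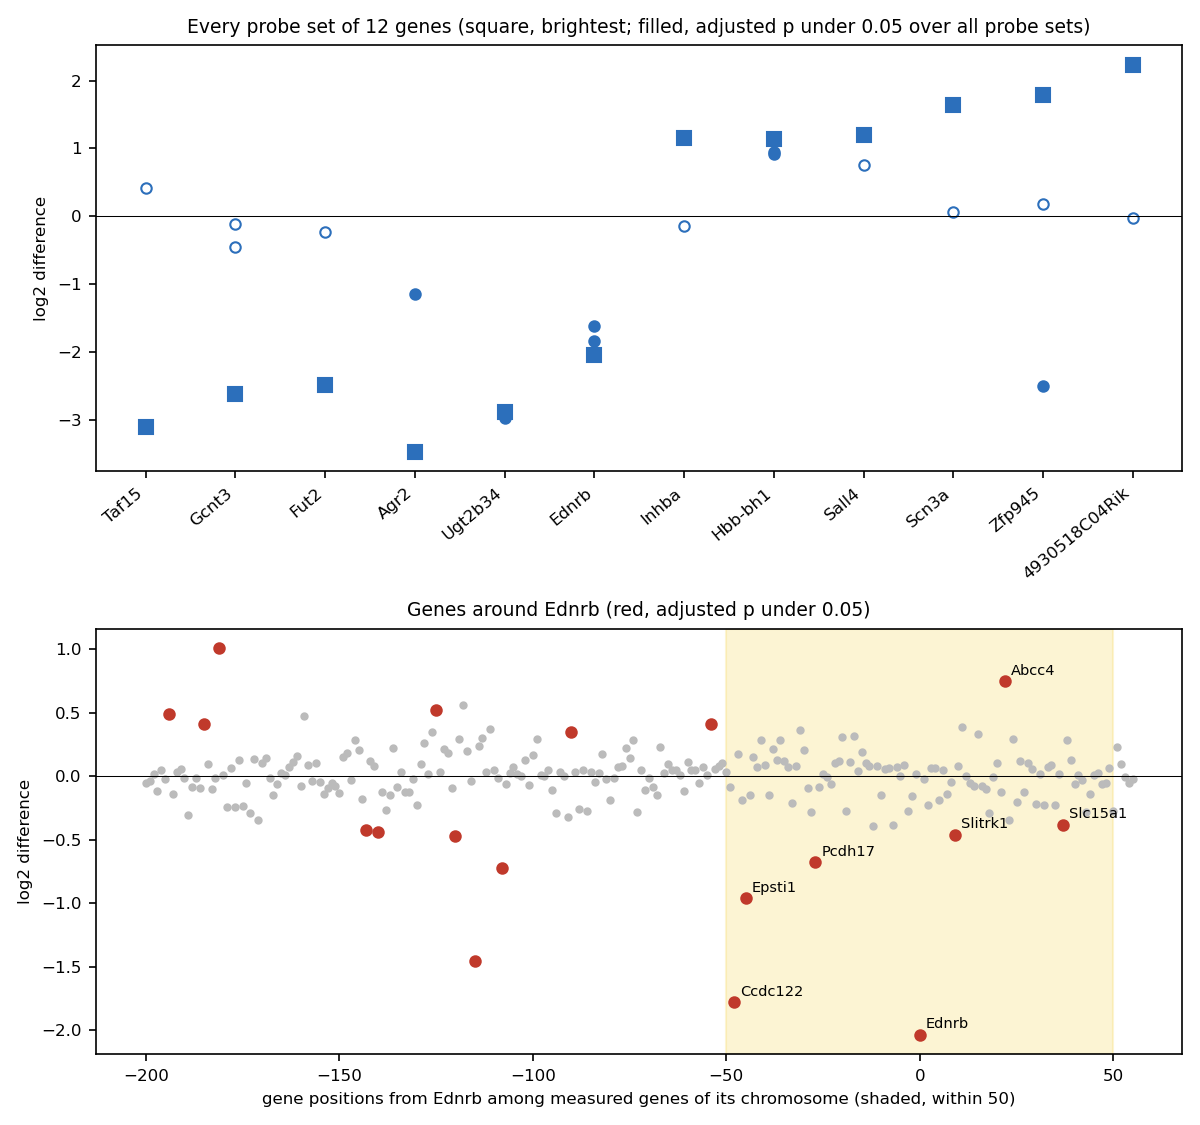
Top, difference (y axis, log2) of every probe set of 12 genes, with the brightest as a square and filled symbols called over all probe sets; Taf15, Zfp945 and 4930518C04Rik have probe sets that part ways, Ednrb and Ugt2b34 do not. Bottom, difference (y axis, log2) of genes by position from Ednrb along its chromosome (x axis), with called genes in red; Ednrb at -2.04 and Ccdc122 at -1.78 lie lowest.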

How the data were processed

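Total RNA of 9 hindgut samples was hybridised to Affymetrix MOE430 version 2 arrays. The deposited values are 1 linear intensity per probe set and array, made by the authors with RMA per the submitters' processing notes. The sources used here give no RMA version. RMA compresses the differences of dim probe sets. The values were converted to log2 with no pseudocount or filter. Of 45101 probe sets 64 are controls, 34945 name 1 gene in the platform annotation, 932 name several and 9160 none. The brightest of each gene over the 6 arrays gave 18193 genes. limma 3.58.1 in R 4.3.3 (lmFit, eBayes, no trend, not robust) compared 3 with 3 arrays, two-sided, with Benjamini-Hochberg adjustment over all genes. A simulation over 18193 genes drew independent noise for each gene at its observed spread and changed a small part of the genes. There limma recovered 65.7% of genes changed 1.5-fold, 89.6% at 2-fold and 98.5% at 4-fold, with 7 false calls. Differences that many genes of an array share were not simulated, so these figures do not give the error of the calls made here. Precision is limited by the number of arrays.

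Named genes are Ednrb, the endothelin list, the 15 largest rises and falls among called genes without overlap (unnamed clones left out unless in the first 5), the called members of 44 lists or otherwise up to 4 of smallest p, and called genes within 50 positions of Ednrb, ordered by a RefSeq table that matched 18032 genes. Other genes named, as markers or as members not called, were chosen after their values were seen. The members and lists were chosen with earlier results of these data known. Alternatives were another fit, probe set rule, scaling, filter, weight, threshold or covariate, and leaving out each array.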

Additional observations from a re-analysis of the deposited data

How the results depend on the processing

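The count of 1295 genes was 1183 to 1444 with a fit over all 9 arrays, another brightest probe set, the mean of a gene's probe sets, median centring, quantile normalization, the dimmest 40% left out, trend and robust eBayes, or Ednrb's chromosome left out. It was 2112 with array weights, 2001 at an adjusted p under 0.10, 182 with a log2 change of at least 1, 819 with the Y-linked mean and 289 with the Actb ratio as covariate, and 474 to 1174 without 1 array, where fewer arrays also lower the power. Of 180 called genes that are named, 53 kept call and direction in every alternative run on them, among them Ednrb, Spink4, Tff3, Agr2, Atoh1, Spdef, Cdx1 and Hmga2. The Zfp945 difference turned to -0.18 (adjusted p = 0.346) with the mean of its probe sets, and the Xaf1 difference to -0.14 (adjusted p = 0.851) with the Actb ratio. Among Y-linked genes that were not called, the Eif2s3y difference turned to -2.61, the Uty difference to -2.17 and the Kdm5d difference to -2.46 there. Of 4 measured sex-linked genes, 3 were called lower in that fit. Within each group the Y-linked mean was lower where the Actb ratio was higher, so that fit does not part these measures. The cause was not tested. Without 1 array, the Actb ratio difference ranged from -0.435 to -0.251, the Y-linked mean difference from 1.13 to 3.65 and that of Xist from -1.17 to -0.147. No paired analysis was possible because the groups share no replicate numbers.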

Other observations

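Enzymes that build and fold secreted glycoproteins, grouped by symbol after the differences had been seen, give a further view of the epithelial genes. Of 70 genes of the galactosyl-, fucosyl-, sialyl- and N-acetylgalactosaminyltransferase families that build glycan chains, 15 were lower in Ednrb null and 1 was higher. That is 22.9% called, against 7.12% of all genes, and the median difference was -0.14. Gcnt3, which branches mucin O-glycans, measured 4.60, 4.59 and 4.38 in Ednrb null against 6.52, 7.66 and 7.22 in Ednrb NCC null, a difference of -2.61 (limma adjusted p = 0.000569), though its other probe sets, which are dim, gave -0.45 and -0.11. Of 7 protein disulphide isomerase genes, Agr2, Agr3, Pdia3 and Pdia5 were lower (57.1%). Hepacam2, a membrane protein of secretory progenitors, averaged 5.82 ± 1.03 against 9.04 ± 0.40 (SD, n = 3 arrays each), a difference of -3.22 (limma adjusted p = 0.00275), and Scin, an actin-severing protein, differed by -3.07.

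Other families grouped in the same way held both high and low shares beside the 7.12% of all genes. Of 8 aldo-keto reductases of the 1C group 3 were called (37.5%), of 10 trefoil and Spink genes 3 (30%), of 10 UDP-glucuronosyltransferases 2 (20%) and of 43 Prss and Tmprss serine proteases 6 (14%), all of them lower. Of 24 claudins 1 was higher and 3 were lower (16.7%), and of 19 tetraspanins 3 were lower (15.8%). Of 347 solute carriers 3 were higher and 29 lower (9.22%), where 69.3% of all called genes were lower. Of 329 genes with Zfp symbols 17 were higher and 12 lower (8.81%). No test was made of these families, and the small ones rest on 2 or 3 genes.

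Gt(ROSA)26Sor, the transcript of the locus often used to carry transgenes, was singled out after its values were seen. It measured 9.85, 10.16 and 9.39 in Ednrb null against 8.86, 9.25 and 8.43 in Ednrb NCC null, with 9.75, 9.81 and 9.50 in wild type. Ednrb NCC null was the low group, with a difference of 0.95 (limma adjusted p = 0.035). No label names an allele at this locus.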
